A study of Mus musculus with 8 samples.

Results

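A total of 3118 open chromatin regions were called in both ATAC-seq libraries labelled WT and in neither library labelled Hira KO, out of 112479 merged regions in the series (2.77%). In ATAC-seq a transposase cuts into accessible DNA and so marks open chromatin, and the authors called peaks in each library on its own. Intervals of the 4 peak lists sharing 1 bp or more were joined into merged regions (GRCm38), and the lists in which a merged region had an interval chose the members. Presence in both labelled WT lists and absence from both others are therefore the rule, and are not findings. The regions are called labelled WT-only below, and the 6341 regions called in both labelled Hira KO libraries and in neither labelled WT library are called labelled Hira KO-only. The cells were LSK cells, the lineage-negative, Sca1-positive, Kit-positive fraction of bone marrow, sorted from C57BL/6 mice that were wild type (WT) or had a conditional Hira knockout (KO). Each group had 2 ATAC-seq and 2 RNA-seq libraries. The driver of the knockout, the age of the mice and any pooling of mice are not given in the sources used here. The labels do not name the mouse behind each library, so p-values measure the spread between these libraries. That spread may be technical, except that the labelled WT RNA libraries differed in sex and so did not come from the same mouse.

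HIRA is a chaperone for H3.3, a histone variant that it places in chromatin independently of DNA replication, at active genes and regulatory elements among other places. LSK cells hold the haematopoietic stem cells and multipotent progenitors, from which erythroid, megakaryocytic, myeloid and lymphoid cells arise. Open regions at gene starts are often shared between cell types, whereas those away from starts, many of them enhancers, tend to differ between lineages.

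The labels themselves went against the RNA of the targeted gene. Hira stood at 16.5 and 17.2 CPM (RNA counts relative to the TMM-scaled library size) in the labelled WT RNA libraries 1 and 2, against 24.4 and 23.3 CPM in the labelled Hira KO libraries 1 and 2. The labelled Hira KO libraries were the higher pair, without overlap, at a log2 fold change of 0.50 (SE 0.19, edgeR quasi-likelihood test, Benjamini-Hochberg adjusted p = 0.18). Reads from exons outside a deleted part can remain in such a count. The names of all 8 deposited files also carry the opposite genotype from the titles, so every direction given here depends on the titles. Of the genes behind the sort, Kit ran from 274 to 351 CPM over the 4 RNA libraries. Ly6a, which encodes Sca1, stood at 10.3 and 8.86 CPM in labelled WT and rose to 23.1 and 33.6 CPM in labelled Hira KO (edgeR log2 fold change 1.57, SE 0.25, adjusted p = 0.0382). The labelled WT RNA library 2 was the 1 male library of the assay by Ddx3y and Xist. No labelled WT-only region lay within 10 kb of Hira.

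Few of the regions lay at gene starts, and the promoter windows that they touched show what sequence they covered there. RefSeq promoter windows of GRCm38.p6, of 300 bases from 250 before to 50 after a gene's start, were matched by coordinates. Of 32851 windows, 43 windows of 39 genes overlapped a labelled WT-only region. None of the genes picked by the rule for named genes was among them, so the 3 windows below were chosen after their values were seen, as examples of CpG-rich and CpG-poor starts. Capitals mark the bases inside the labelled WT-only region, and each window is written 5′ to 3′ on the gene's strand. Cnnm1 (chr19:43440163-43440462, plus strand) encodes a CNNM family membrane protein, Slc26a10 (chr10:127180533-127180832, minus strand) belongs to a family of anion transporter genes, and Wiz (chr17:32387768-32388067, minus strand) encodes a zinc finger partner of the G9a and GLP histone methyltransferases.
Cnnm1: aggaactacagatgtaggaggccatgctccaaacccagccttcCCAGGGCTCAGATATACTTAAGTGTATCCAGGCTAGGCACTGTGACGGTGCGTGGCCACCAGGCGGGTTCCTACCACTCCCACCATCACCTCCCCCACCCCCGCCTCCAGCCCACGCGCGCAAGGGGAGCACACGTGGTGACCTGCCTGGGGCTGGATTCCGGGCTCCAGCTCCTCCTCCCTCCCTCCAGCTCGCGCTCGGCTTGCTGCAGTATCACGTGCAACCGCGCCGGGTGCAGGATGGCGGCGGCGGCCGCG
Slc26a10: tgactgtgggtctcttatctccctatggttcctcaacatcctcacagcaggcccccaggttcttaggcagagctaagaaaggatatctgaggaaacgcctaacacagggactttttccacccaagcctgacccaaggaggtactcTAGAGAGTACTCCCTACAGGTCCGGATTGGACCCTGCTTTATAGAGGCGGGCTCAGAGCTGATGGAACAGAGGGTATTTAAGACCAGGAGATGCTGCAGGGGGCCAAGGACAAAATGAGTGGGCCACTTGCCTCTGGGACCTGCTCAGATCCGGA
Wiz: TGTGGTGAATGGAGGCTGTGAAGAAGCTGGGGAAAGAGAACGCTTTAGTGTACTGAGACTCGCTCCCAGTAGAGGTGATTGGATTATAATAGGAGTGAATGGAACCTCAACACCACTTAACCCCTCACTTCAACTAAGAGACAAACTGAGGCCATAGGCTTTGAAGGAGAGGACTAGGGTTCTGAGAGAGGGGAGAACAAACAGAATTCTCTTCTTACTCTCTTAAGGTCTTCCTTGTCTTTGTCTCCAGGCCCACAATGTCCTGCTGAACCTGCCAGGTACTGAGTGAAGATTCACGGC

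The Cnnm1 window held 21 CpG dinucleotides and 4 matches to the KLF/SP letters inside the region, and 257 of its 300 bases were inside. The Wiz window lay wholly inside its region and held 3 CpG dinucleotides. Over the 43 windows the median was 4 CpG dinucleotides, against 7 over all windows, 5 over the 237 windows overlapping labelled Hira KO-only regions and 21 over the 12749 windows overlapping regions called in all 4 lists. At most 5 CpG dinucleotides were found in 60.5% of the 43 windows, 52.7% of the labelled Hira KO-only windows, 43.6% of all windows and 8.22% of those called in all 4 lists. The starts touched by labelled WT-only regions were thus mostly CpG-poor, as were those touched by labelled Hira KO-only regions, unlike the starts open in all 4 libraries. GC content was 50.7% over all bases of the 43 windows, 52.3% over the labelled Hira KO-only windows, 61.4% over the windows called in all 4 lists and 53.8% over all windows.

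Motif letters were searched on both strands and are a description of the windows only. The GATA letters AGATAA were present in 8 of the 43 windows (18.6%), in 11.2% of all windows, in 13.9% of labelled Hira KO-only windows and in 6.49% of those called in all 4 lists. In 3 of these 8 windows no match lay in the bases inside the labelled WT-only region. The NF-Y letters CCAAT were present in 48.8% of the 43 windows against 37.4% of all windows and 38.4% of those called in all 4 lists. The CTCF core letters AGGNGGC were present in 41.9% against 29.4%, and in 40.7% of the windows called in all 4 lists. The RUNX letters TGTGGT (20.9% against 16.8%), the KLF/SP letters CCNCCC (69.8% against 68.6%) and the PU.1 letters GAGGAAG (14.0% against 13.6%) lay closer to the share of all windows. These shares rest on 43 windows.

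Of the 17 erythroid genes that carried labelled WT-only regions, promoter windows were looked up for Rhag, Tfrc, Hba-a2, Epor and Tal1, and each was open in all 4 lists. Epor, which encodes the erythropoietin receptor (window chr9:21963527-21963826, minus strand), and Tal1, a transcription factor gene of blood stem cells and the erythroid lineage (the first of its windows, chr4:115056176-115056475, plus strand), are printed for that contrast. Capitals mark matches on either strand to the GATA letters AGATAA (read as TTATCT on the other strand), the KLF/SP letters CCNCCC and the E-box letters CAGCTG.
Epor: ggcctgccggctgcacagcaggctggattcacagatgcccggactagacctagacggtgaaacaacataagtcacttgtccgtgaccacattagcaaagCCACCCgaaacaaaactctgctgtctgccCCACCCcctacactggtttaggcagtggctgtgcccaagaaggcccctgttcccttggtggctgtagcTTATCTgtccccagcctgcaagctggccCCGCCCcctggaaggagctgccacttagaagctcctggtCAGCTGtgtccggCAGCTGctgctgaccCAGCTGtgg
Tal1: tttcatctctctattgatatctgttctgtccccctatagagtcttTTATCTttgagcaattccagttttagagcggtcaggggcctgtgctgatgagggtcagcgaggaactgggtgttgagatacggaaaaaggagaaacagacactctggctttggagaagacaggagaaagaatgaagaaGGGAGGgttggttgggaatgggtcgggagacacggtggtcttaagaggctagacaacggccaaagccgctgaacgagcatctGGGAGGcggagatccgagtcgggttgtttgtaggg

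The Epor window held 1 GATA, 3 KLF/SP and 3 E-box matches, and the Tal1 window 1 GATA and 2 KLF/SP matches. The 2 labelled WT-only regions near Epor and the 3 inside Tal1 lay elsewhere at these genes. At Tal1 they spanned from 11.0 to 14.2 kb into a gene body of 15.3 kb.

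The 3118 regions were a small class among the ways in which the 4 lists shared regions. Regions called in all 4 lists numbered 45779. Regions called in the labelled Hira KO list 1 alone numbered 19300, and those in the labelled WT list 1 alone 9688. The 2 labelled WT lists held 79565 and 63422 intervals, and the labelled Hira KO lists 92839 and 73715, so library 1 of each group gave the longer list. The pairing of labelled WT 1 with labelled Hira KO 1, which crosses the groups, held 6169 regions, more than the labelled WT pair. The pairing of labelled WT 2 with labelled Hira KO 2 held 756. The number of labelled WT-only regions depended on each library, but leaving a list out relaxes the rule, so the number could not fall. Called without the labelled WT list 1 or 2 it was 5680 or 13049, and without the labelled Hira KO list 1 or 2 it was 5928 or 5139. The order of the 2 classes depended on list length. With as many of the strongest peaks per list as the shortest list holds, there were 4400 labelled WT-only and 3818 labelled Hira KO-only regions. Without the labelled WT list 2 there were 13049 and 8123, but labelled WT-only then needed 1 list and labelled Hira KO-only still needed 2. Without the labelled Hira KO list 2, the reverse case, there were 5139 and 25745.

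**Figure D1:**
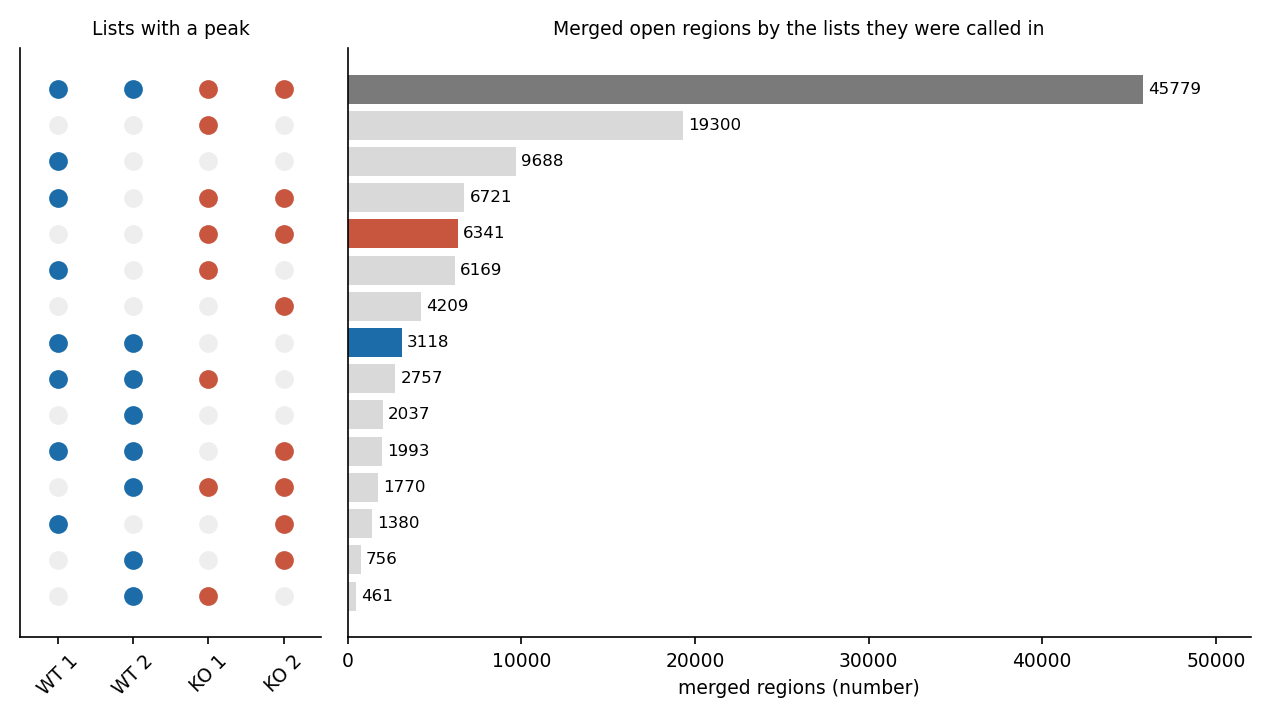
Number of merged regions (horizontal axis) for each combination of the 4 peak lists, with filled dots at left for the lists in which the regions were called. With the lists as deposited, labelled WT-only regions (blue) number 3118, labelled Hira KO-only regions (red) 6341 and regions called in all 4 lists (dark grey) 45779.

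Labelled WT-only regions were narrow, weak peaks. Since presence in the lists chose them, their strength is a description. Their median width was 375 bp (205 to 5117 bp), near the 351 bp of labelled Hira KO-only regions and below the 618 bp of regions called in all 4 lists. They covered 1376 kb in all. The authors' fold enrichment, the signal at the summit over the peak caller's local background, had a median of 4.43 in labelled WT 1 and 4.60 in labelled WT 2, against 11.9 and 9.85 for regions called in all 4 lists. The highest values among members were 22.9 and 27.9. Fold values in each list were whole multiples of 1 step, within 2% of a step (0.192, 0.328, 0.233 and 0.343 in labelled WT 1 and 2 and labelled Hira KO 1 and 2). The lowest peak of a list stood at 13, 9, 11 and 9 steps, in the same order, and read totals are unknown. Members had medians of 23 and 14 steps in labelled WT 1 and 2, between these lowest values and the medians of 33 and 22 over all peaks of the 2 lists. Regions called in all 4 lists had 62 and 30. Within their lists the members had median percentile ranks of 30.2 and 21.0.

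Some members stood well above this. Ranked by the lower of the fold percentiles in the 2 labelled WT lists, the first of the members covered Cops6, a subunit gene of the COP9 signalosome (chr5:138162829-138164025), with folds of 21.4 and 24.6 in labelled WT 1 and 2, or 111 and 75 steps. It lay within 10 kb of Mcm7, a subunit gene of the replicative helicase, and of the miRNA genes Mir25, Mir93 and Mir106b. A region over the RNA helicase gene Ddx5 (chr11:106781626-106782623) had folds of 20.8 and 26.3, and 1 over Noc2l and Samd11 (chr4:156245723-156247650) had 20.0 and 27.9. By the lower -log10 q of the 2 lists the Noc2l region came first (99.9 against 84.1 for Cops6). Noc2l encodes a histone acetyltransferase inhibitor that also works in ribosome assembly. A region on chromosome 2 (chr2:146625296-146625800) had no gene within 10 kb and folds of 16.7 and 20.7. The other two of the strongest 6 covered the RNA polymerase III subunit gene Polr3e (chr7:120932076-120932791; 18.1 and 18.1) and the sorting nexin gene Snx5 (chr2:144252419-144253682; 17.7 and 18.1). These 6 ranked between the percentiles of 77.5 and 84.9 of their lists, so even they were not among the highest peaks.

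The 4 widest regions each covered protein-coding genes. The widest spanned 5117 bp at the ribosomal protein gene Rps4x (chrX:102179923-102185039, folds 11.7 and 9.19). Next came 3250 bp over the vitamin K carboxylase gene Ggcx and the methionine adenosyltransferase gene Mat2a (chr6:72430786-72434035, folds 15.2 and 17.4), and 3107 bp over the translation initiation factor gene Eif3g and the ribosome assembly gene Ppan (chr9:20891365-20894471, folds 12.1 and 16.7). A region of 3009 bp covered the ribosomal protein gene Rpl31 and Tbc1d8 (chr1:39371776-39374784, folds 6.73 and 9.52). The nearest gene start lay 3190 to 4648 bp away from these 4.

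The boundary of the class was a threshold of the caller and not a gap in the values. In 34 members the weaker of the 2 peaks had the lowest -log10 q found among members, and 284 members stood at 10 steps or fewer in at least 1 list. Just inside were a region over the palmitoyltransferase gene Zdhhc14 (chr17:5532871-5533191) and 1 over the RNA-binding protein gene Larp4b (chr13:9130694-9131063), each with a fold of 2.50 in labelled WT 1. Just outside were 4750 regions called in both labelled WT lists and in 1 labelled Hira KO list, of which 33 had the lowest labelled Hira KO -log10 q among them. A region in the dynein gene Dync2h1 (chr9:7122813-7123315) had folds of 11.7 and 14.1 in labelled WT and 2.56 in labelled Hira KO 1. A region of 3040 bp over the ribosomal protein gene Rpl10a and Tead3 (chr17:28330873-28333912) had 10.8 and 15.4, and 2.56 in labelled Hira KO 1. Peaks just outside could thus be stronger in labelled WT than those just inside. Both labelled WT peaks had a -log10 q of at least 5 in 1414 members (45.3%).

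Labelled WT-only regions lay away from gene starts, while their share within 10 kb of a gene was like that of regions called in all 4 lists. Over the chromosomes with promoter windows, 31 of 3036 members (1.02%) lay at a gene start, against 3.05% of labelled Hira KO-only regions and 21.1% of regions called in all 4 lists. Within 1 kb of a start lay 5.83% of members, 6.35% of labelled Hira KO-only regions and 25.0% of regions called in all 4 lists. The median distance to a start was 11717 bp for members, 19100 bp for labelled Hira KO-only regions and 9664 bp for regions called in all 4 lists. A gene body was overlapped by 69.4% of the members, 66.3% of labelled Hira KO-only regions and 75.5% of regions called in all 4 lists. Within 10 kb of a gene lay 91.3%, 84.9% and 91.1%, in the same order. The share of all merged regions on a chromosome that were labelled WT-only ran from 2.11% (chromosome 12) to 3.39% (chromosome 4), leaving out chromosome Y, where 4 of 110 were members.

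The regions also lay close to other open chromatin. Within 1 kb of a region called in all 4 lists lay 35.9% of the labelled WT-only regions but 9.79% of the labelled Hira KO-only regions, and the median distance was 2067 against 9584 bp. Another labelled WT-only region lay within 10 kb for 904 members (29.0%), so many members shared a locus and are not independent of each other. Among 21883 protein-coding genes, 2690 had a labelled WT-only region within 10 kb (12.3%) and 3718 had a labelled Hira KO-only region (17%).

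Genes with labelled WT-only regions were the more highly expressed ones. Protein-coding genes tested for RNA were split into 4 bins of 3160 by mean TPM over the 4 libraries. A labelled WT-only region within 10 kb was found for 9.97% of genes in the lowest bin, 15.9% and 18.9% in the middle bins, and 27.1% in the highest. Labelled Hira KO-only regions showed no such gradient, with 23.3%, 23.3%, 23.8% and 23.8% in the same order, whereas regions called in all 4 lists did, with 82.0% in the lowest bin and 96.6% or more in the others. Median gene length was 25.3, 22.2, 25.6 and 24.3 kb, so the bins did not order by length. Leaving out each ATAC-seq library in turn relaxes the rule, and each resulting set overlapped all 3118 members, so these settings are no separate check. The lowest bin then ran from 15.1% to 32.7% and the highest from 37.3% to 58.5%, and the highest stayed above the lowest in each case. In that order, without labelled WT 1 the shares were 17.1% and 39.8%, without labelled WT 2 32.7% and 58.5%, without labelled Hira KO 1 19.2% and 37.9%, and without labelled Hira KO 2 15.1% and 37.3%.

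Inside genes, labelled WT-only regions leaned to the end of the gene body. Of 1578 members lying in a single protein-coding gene with a known start, 26.6%, 19.9%, 21.2% and 32.3% had their centre in the first to the last of 4 equal parts of the body. The same shares were 31.3%, 25.8%, 22.0% and 20.9% for 2800 labelled Hira KO-only regions and 49.5%, 18.2%, 15.7% and 16.6% for 23168 regions called in all 4 lists. The last part was thus the fullest for members and the first for both other classes. The genes around members had a median of 13.0 TPM, against 8.61 TPM around labelled Hira KO-only regions and 10.3 TPM around regions called in all 4 lists.

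**Figure D2:**
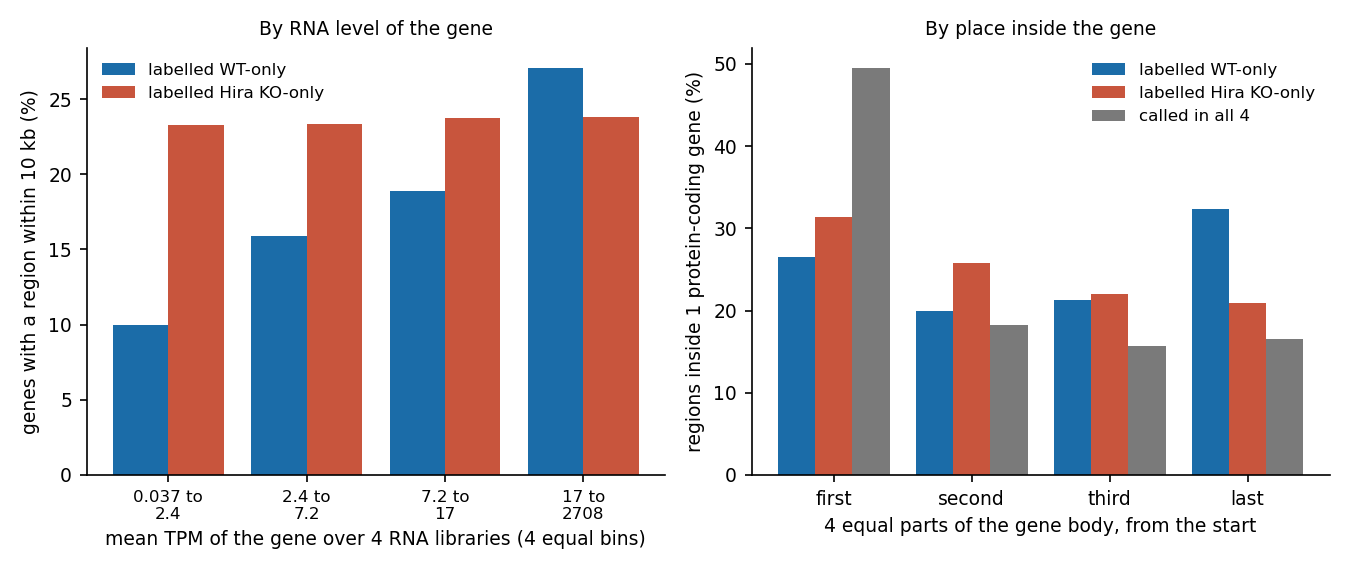
Left, percent of tested protein-coding genes with a region within 10 kb (vertical axis), in 4 equal bins of mean TPM. Right, percent of regions inside 1 protein-coding gene in 4 equal parts of its body from the start. Labelled WT-only regions (blue) were found at 9.97% of genes in the lowest and 27.1% in the highest bin and were most frequent in the last part of the body (32.3%), while labelled Hira KO-only regions (red) stayed near 23% at each level.

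The RNA of genes near labelled WT-only regions was compared between the groups to ask whether these genes differed in expression. RNA was not used to choose the regions. In the whole table edgeR's quasi-likelihood test called 78 genes lower (0.48%) and 214 higher (1.32%) in labelled Hira KO among 16258. Of the 2392 tested genes within 10 kb of a labelled WT-only region, 19 were lower (0.794%) and 18 higher (0.753%). Among the 13489 tested genes with any merged region within 10 kb, 72 were lower (0.534%) and 181 higher (1.34%). In this fit calls near members were therefore few, with a lower share of higher calls than among all genes near open chromatin. DESeq2 was run without the low-count filter on 29706 genes, 2898 of them near members. Over that wider set the share of higher calls was instead greater near members than over all genes (3.69% against 2.61%). The wider set adds low-count genes, so its shares do not compare directly with those of edgeR. For the 1814 genes with labelled WT-only regions and no labelled Hira KO-only region, edgeR called 16 lower and 7 higher.

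Near members the median log2 fold change, labelled Hira KO over labelled WT, was -0.09, against -0.03 over genes near any region and 0.01 over all tested genes. The quartiles of the 2392 genes ran from -0.43 to 0.28, and 57.2% lay below 0. The median for each pairing of 1 labelled Hira KO with 1 labelled WT library was -0.07, -0.07, -0.11 and -0.11 (SD 0.02 over the 4 pairings, which share libraries). For genes with 0, 1, 2 and at least 3 labelled WT-only regions, the medians were -0.01, -0.07, -0.12 and -0.20. The mean RNA level moved in the same way, with medians of 5.83, 9.69, 13.7 and 19.9 TPM, and its part in these differences was not tested. In bulk samples a shift of this kind cannot be told apart from a change in the share of a cell type.

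Of the genes called lower near members and detected in every library, Tjp1 had the largest fold. Tjp1, which encodes the tight junction scaffold ZO-1, stood at 58.1 and 68.5 CPM in labelled WT, against 8.34 and 5.41 CPM in labelled Hira KO. It fell by 3.20 on the log2 scale (SE 0.25, edgeR adjusted p = 0.00842), and the groups lay far apart. The fibrillar collagen gene Col5a1 stood at 26.8 and 31.4 CPM against 4.56 and 1.98 CPM (edgeR log2 fold change -3.14, SE 0.39, adjusted p = 0.0307). The cytoskeleton linker gene Gas2l1 stood at 12.3 and 12.7 CPM against 0.881 and 1.98 CPM (edgeR log2 fold change -3.13, SE 0.42, adjusted p = 0.0332). Both were low in each labelled Hira KO library. Fam205a4 stood at 2.49 and 3.72 CPM in labelled WT and had no count in either labelled Hira KO library, at least 18.5-fold lower against a floor of 3 counts per library. It belongs to a family of near-identical copies, between which reads can be split. Tjp1 had 4 and Col5a1 3 labelled WT-only regions, all inside the gene.

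More abundant genes that fell include Adgrl1, an adhesion receptor gene (93.8 and 83.9 against 32.8 and 27.3 CPM; edgeR log2 fold change -1.56, SE 0.17, adjusted p = 0.018). The neutrophil granule gene Lcn2 fell from 72.3 and 82.3 to 35.4 and 27.1 CPM (edgeR log2 fold change -1.31, SE 0.19, adjusted p = 0.0337). The cytoplasmic poly(A)-binding protein gene Pabpc4 had 6 labelled WT-only regions, 3 in its body and 3 beyond its end. It fell from 112 and 104 to 59.3 and 54.1 CPM (edgeR log2 fold change -0.93, SE 0.15, adjusted p = 0.0382). The mitochondrial chaperonin gene Hspd1, with 3 such regions, fell from 217 and 236 to 126 and 112 CPM (edgeR log2 fold change -0.93, SE 0.15, adjusted p = 0.037). Eif3g, overlapped by 1 of the widest regions, fell by 0.98 on the log2 scale. The spindle checkpoint gene Bub1b (-1.02), the ribosome assembly gene Bop1 (-1.06), the cell cycle transcription factor gene E2f4 (-0.85), the valyl-tRNA synthetase gene Vars (-0.83) and the phosphatase gene Ppm1g (-0.88) also passed. The remaining called genes were Pyroxd2 (-2.12), the p53 target gene Zmat3 (-1.58), the matrix gene Emilin2 (-1.49), the xylosyltransferase gene Xylt1 (-1.29) and Cdk2ap1 (-1.07).

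Genes called higher near members included Meis1 of the stem cell list, whose RNA rose although a nearby region was called in labelled WT only. Meis1, a homeobox gene of stem cells, stood at 70.0 and 78.8 against 205 and 240 CPM (edgeR log2 fold change 1.58, SE 0.16, adjusted p = 0.0167), and Hoxa9 at 25.7 and 24.6 against 52.7 and 60.7 CPM (1.17, SE 0.17, edgeR adjusted p = 0.0337). The groups did not overlap in either gene. The zinc finger gene Zbtb20 stood at 148 and 128 against 366 and 394 CPM (log2 fold change 1.46), and Msi2, an RNA-binding protein gene of stem cells, at 153 and 177 against 288 and 321 CPM (0.88). The stress response phosphatase subunit gene Ppp1r15a (2.15), the thromboxane synthase gene Tbxas1 (1.68), the RNA sensor gene Ddx58 (1.49), Pard3b (1.35), the non-coding gene 2610307P16Rik (1.33), Xaf1 (1.29), the oestrogen receptor gene Esr1 (1.25), Ikzf2 (0.99), the remodeller genes Smarca2 (0.99) and Chd2 (0.98), Fnbp1l (0.94), Spns2 (0.94) and Runx2 (0.79) rose as well. Meis1 had 3 labelled Hira KO-only regions beside its 1 labelled WT-only region, and Tbxas1 5 beside 1.

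In all 37 called genes near members the groups did not overlap. With 2 libraries per group a call nearly requires this, so it adds no support to the calls. The share of all tested genes without overlap is not given here. The calls depended on which RNA libraries were in the fit. With 1 labelled WT library left out, the spread between replicates comes from the labelled Hira KO pair alone, and the reverse holds too. The counts below therefore also reflect which pair supplies that spread, and cannot show on which libraries a gene's call rested. Without labelled WT 1, edgeR called 0 genes lower and 1 higher near members, and without labelled WT 2 it called 0 and 0. None of the 37 genes passed in either case. Without labelled Hira KO 1 it called 442 lower and 251 higher near members, and without labelled Hira KO 2 144 and 109, and all 37 passed in both. limma on log2(TPM + 1) called 12 of the 37, with Tjp1, Col5a1, Gas2l1, Lcn2, Adgrl1, Meis1 and Zbtb20 among them, and not Hoxa9, Pabpc4 or Hspd1.

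**Figure D3:**
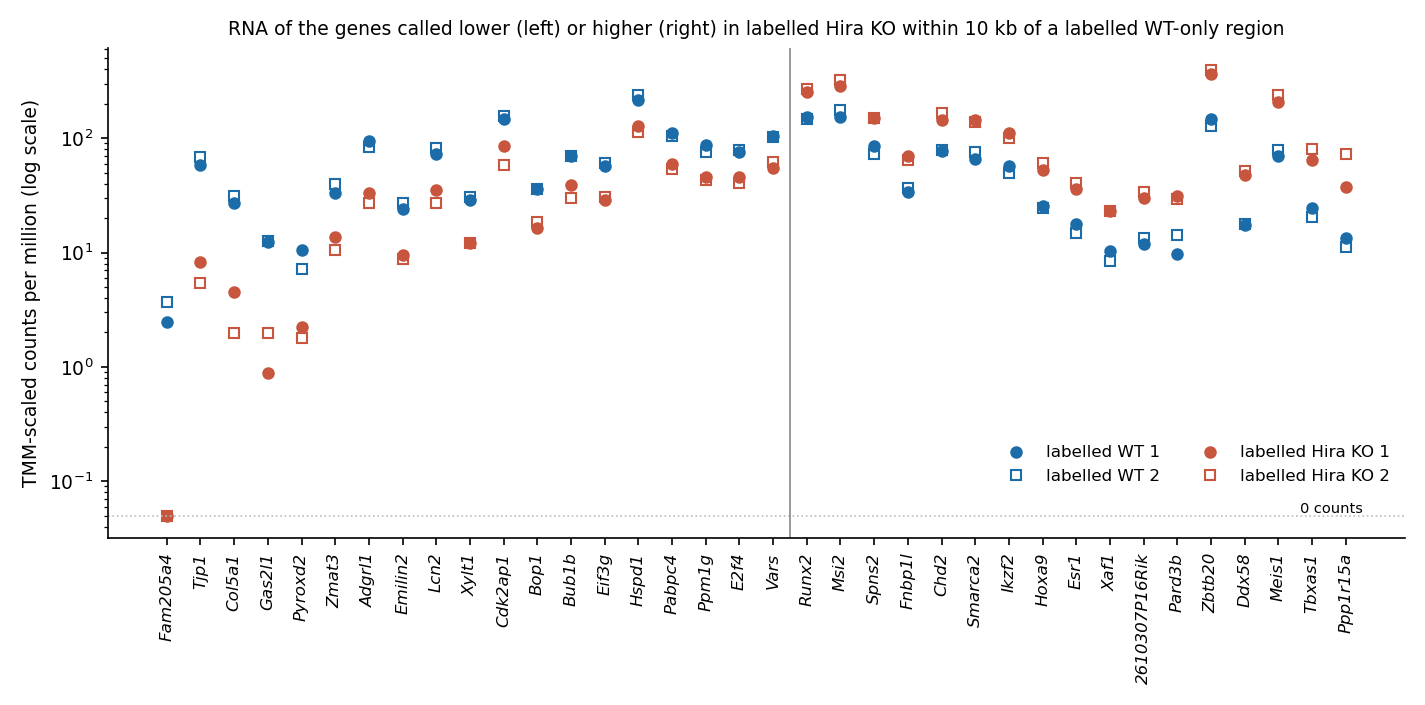
TMM-scaled CPM (log axis) of genes within 10 kb of a labelled WT-only region that edgeR called lower (left of the line, 19 genes) or higher (right, 17 of the 18 genes) in labelled Hira KO. Filled circles are library 1 and open squares library 2 of labelled WT (blue) and labelled Hira KO (red), and Fam205a4, with 0 counts in both labelled Hira KO libraries, is drawn on the dotted line. The colours do not overlap in any gene drawn, which a call from 2 libraries per group nearly requires.

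Several genes held many labelled WT-only regions. Gse1, a gene of a chromatin-associated protein with a body of 353 kb, held 11, and 51 regions called in all 4 lists lay there too. Its RNA stood at 78.2 and 66.3 against 59.3 and 57.5 CPM (edgeR log2 fold change -0.31, SE 0.16, adjusted p = 0.289). Slc4a1, the gene of band 3, the anion exchanger of the red cell membrane (chromosome 11, 102348820 to 102365281, GRCm38), came next with 9 labelled WT-only regions around a body of 16.5 kb. At this gene 7 of the 9 overlapped the body, only 3 regions nearby were called in all 4 lists, and there was no labelled Hira KO-only region. Their folds ran from 3.08 to 6.16 in labelled WT 1 and from 3.61 to 9.85 in labelled WT 2. The strongest lay across the low-coordinate end of the gene (chr11:102347481-102348836). Slc4a1 RNA was scarce, at 2.96 and 1.04 against 1.50 and 0.301 CPM. The groups overlapped, and the log2 fold change of -1.13 (SE 0.87, adjusted p by edgeR = 0.481) did not pass. The gene with the second highest number of labelled WT-only regions was thus little expressed in all 4 libraries.

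Ank1, which encodes the erythrocyte ankyrin that ties band 3 to the spectrin skeleton, had 6 labelled WT-only regions, all in its body of 176 kb. Of these, 3 lay within 75.3 to 78.0 kb of the low-coordinate end. Ank1 RNA stood at 48.7 and 62.7 against 24.7 and 4.93 CPM (edgeR log2 fold change -1.90, SE 0.85, adjusted p = 0.305). The labelled Hira KO libraries were both lower but far apart. Tfrc, the transferrin receptor gene by which erythroid cells take up iron, had 3 such regions, all between 23.2 and 26.8 kb from its start, at the end of a body of 23.9 kb. The strongest (chr16:32632943-32634676) had folds of 10.2 in both lists, and the start of Tfrc was covered by a region called in all 4. Tfrc RNA stood at 123 and 154 against 73.1 and 40.5 CPM (edgeR log2 fold change -1.29, SE 0.29, adjusted p = 0.0757), without overlap.

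Mki67, the gene of the proliferation antigen Ki-67, had 6 labelled WT-only regions and none that was labelled Hira KO-only. Past the end of its body of 26.7 kb, a region at 27.5 to 28.2 kb from the start (chr7:135688219-135688911) had folds of 12.7 and 26.9, or 66 and 82 steps. The gene's RNA was at 1382 and 1593 against 961 and 703 CPM (edgeR log2 fold change -0.84, SE 0.21, adjusted p = 0.0816), without overlap. Tnfaip2, Minpp1, Cep295 and Wdr13 had 6 labelled WT-only regions each. Tnfaip2 stood at 29.0 and 37.9 against 14.3 and 8.53 CPM (edgeR log2 fold change -1.55, SE 0.29, adjusted p = 0.0508). The 6 regions at Wdr13 lay outside its body, and its log2 fold change was 0.55 (edgeR adjusted p = 0.204). Minpp1 (-0.95) and Cep295 (-0.53) did not pass either, so of these 8 genes 7 lay below 0 and Pabpc4 alone passed. Genes tied at 6 regions were taken by the lowest unadjusted edgeR p, which left out Ank1. RNA thus helped to choose the 8 genes, and this count says nothing about genes with many regions. Over all tested genes 49.1% lay below 0.

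**Figure D4:**
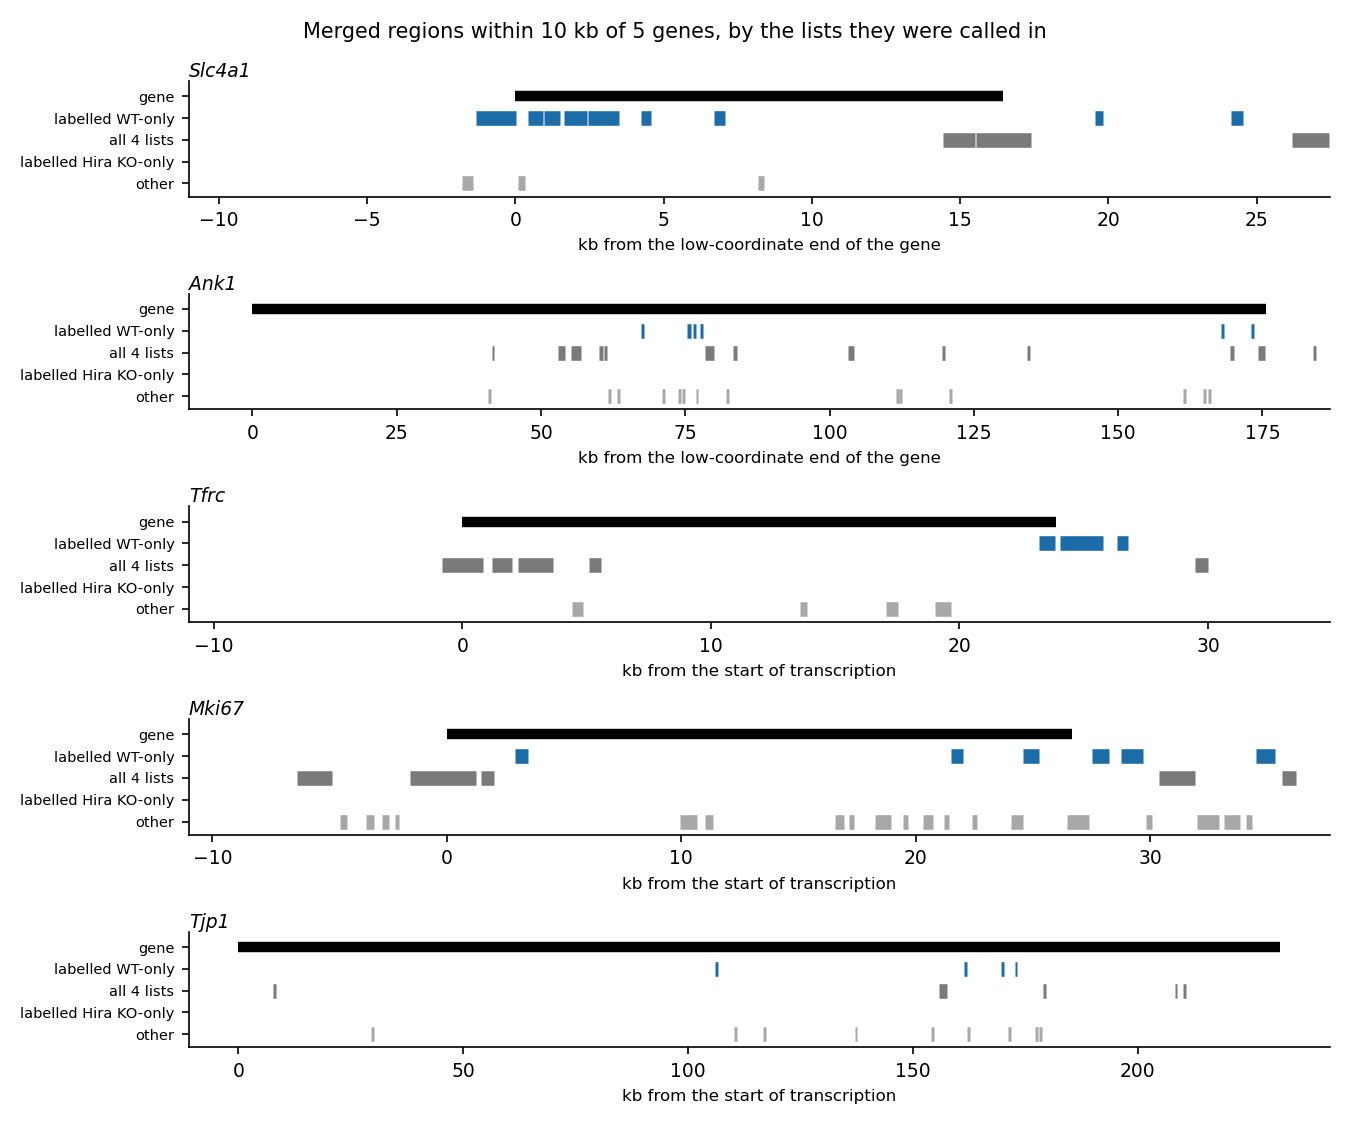
Merged regions within 10 kb of Slc4a1, Ank1, Tfrc, Mki67 and Tjp1 by the lists in which they were called, against distance in kb from the start of transcription or, where that is not in the RefSeq table, from the low-coordinate end of the gene. The black bar is the gene body, and the narrowest regions are drawn wider than scale so that they can be seen. Labelled WT-only regions (blue) gather at the low-coordinate end of Slc4a1 and at the end of Tfrc, and none of the 5 genes has a labelled Hira KO-only region.

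Across 12 gene lists, erythroid genes had the most labelled WT-only regions and the smallest number of labelled Hira KO-only ones. Near the 30 erythroid genes there were 46 labelled WT-only regions and 1 labelled Hira KO-only region, which lay near Blvrb, a heme breakdown enzyme gene. There were also 159 regions called in all 4 lists. Near all protein-coding genes the same counts were 2574, 4434 and 37072. A labelled WT-only region lay near 17 of the 30 genes (56.7%), against 12.3% of all protein-coding genes, and 7 of the 30 are also in another list. The lists are a description, since members and lists were chosen with earlier results known. Called without the labelled WT list 1 or 2, the counts at erythroid genes were 99 and 4, or 111 and 1. Without the labelled Hira KO list 1 or 2 they were 56 and 7, or 60 and 6. Since leaving a list out relaxes the rule, these counts could not fall.

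The RNA of erythroid genes lay lower in labelled Hira KO, mostly without passing the test. Of 29 tested, 1 passed downward, the translocator gene Tspo2 (8.89 and 13.7 against 2.54 and 2.22 CPM; edgeR log2 fold change -2.24, SE 0.35, adjusted p = 0.037), which had no labelled WT-only region. Without labelled WT 1 or 2 no gene of the list passed edgeR, with 8 and 7 below 0 at an unadjusted p below 0.05. The list's median log2 fold change was -1.42, with 24 below 0, against a median of 0.01 over all tested genes. For the 17 genes near a labelled WT-only region it was -1.29, and for the other 12 it was -1.47, so genes with and without such a region had similar medians. Of the 17, edgeR called 0, with 5 at an unadjusted p below 0.05, DESeq2 called 3 and limma on log2(TPM + 1) called 7, all lower. Over all genes tested in each fit, edgeR called 0.48% lower, DESeq2 1.70% and limma 1.61%. Without labelled Hira KO 1 the median of the 17 genes was -2.51, and without labelled Hira KO 2 it was -0.65. The summed level of the 30 genes was 1343 and 1671 CPM in labelled WT and 956 and 454 CPM in labelled Hira KO, and none of the 30 was at 0 in all 4 libraries. The gate excludes lineage-positive cells, and the part of erythroid cells in the labelled WT-only regions was not tested.

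Other red cell genes with labelled WT-only regions include Rhag, a Rh-complex membrane protein gene, with 3 (31.7 and 43.4 against 11.8 and 2.83 CPM; edgeR log2 fold change -2.35, SE 0.70, adjusted p = 0.16). Epor stood at 22.1 and 26.6 against 10.2 and 1.74 CPM (edgeR log2 fold change -2.02, SE 0.83, adjusted p = 0.256). Zfpm1, which encodes the GATA1 cofactor FOG1, had 3 regions and stood at 40.4 and 38.1 against 27.5 and 16.0 CPM. In these 3 genes labelled Hira KO library 2 was the lowest. Tal1 had 3 regions and a log2 fold change of -0.32, and the carbonic anhydrase gene Car2 had 3 and a log2 fold change of -0.09. The alpha globin gene Hba-a2 had 3 regions and stood at 4.71 and 1.86 against 3.94 and 4.39 CPM, with overlap. Klf1, Gata1 and Alas2, defining genes of the lineage, had no labelled WT-only region within 10 kb.

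Stem cell genes had more labelled WT-only than labelled Hira KO-only regions although their RNA lay higher in labelled Hira KO. Near 30 haematopoietic stem cell (HSC) genes there were 23 labelled WT-only and 11 labelled Hira KO-only regions, and 15 of the 30 genes (50%) had at least 1 of the former. Of 30 tested, 6 passed edgeR upward (1.32% of all tested genes did), and the median log2 fold change was 0.83. None of these calls held without labelled WT 1 or 2. With all libraries DESeq2 called 14 of the 30 upward, against 2.61% of all genes it tested. Of the 15 near a labelled WT-only region, 2 passed upward, Meis1 among them, with a median of 0.82. Without labelled WT 1 or 2, none of the 15 passed edgeR, with 7 and 10 above 0 at an unadjusted p below 0.05, whereas DESeq2 with all libraries called 9. The summed level of the list was 1244 and 1351 CPM in labelled WT and 2318 and 2513 CPM in labelled Hira KO. Lmo2, the gene of a bridging factor that works with TAL1, had 4 labelled WT-only regions and stood at 72.6 and 78.5 against 122 and 132 CPM (edgeR log2 fold change 0.75, SE 0.14, adjusted p = 0.0518). Of this list 15 genes, Tal1 and Gata2 among them, stand in other lists too, so counts of different lists share regions.

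In the list of 51 haematopoietic transcription factors, 24 genes (47.1%) had a labelled WT-only region, with 39 labelled WT-only and 47 labelled Hira KO-only regions in all. Ikzf1, a lymphoid transcription factor gene, had 5 and stood at 438 and 431 against 422 and 395 CPM. Its RNA was nearly level between the groups (edgeR log2 fold change -0.09, SE 0.14, adjusted p = 0.756). Bcl11a, a repressor gene of fetal globin and a lymphoid factor, had 3 and a log2 fold change of 0.03 (SE 0.18, adjusted p by edgeR = 0.937).

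Myeloid, mast cell and lymphoid lists went the other way in the count of regions. Near 25 granulocyte and monocyte genes there were 3 labelled WT-only and 18 labelled Hira KO-only regions, and near 20 mast cell, basophil and eosinophil genes 1 and 8. Near 30 lymphoid genes the counts were 10 and 24, and near 17 dendritic cell and MHC class II genes 4 and 15. A labelled WT-only region lay near 12% of the granulocyte and monocyte genes and 13.3% of the lymphoid genes, close to the 12.3% of all protein-coding genes. For the mast cell list the share was 5%, and for the dendritic cell list 17.6%. The adhesion (13 and 26) and cytokine receptor lists (10 and 27) also had more labelled Hira KO-only regions, as did protein-coding genes in general. The summed RNA of the granulocyte and monocyte list was 4750 and 3162 CPM in labelled WT and 2173 and 1444 CPM in labelled Hira KO. The myeloperoxidase gene Mpo made up most of the difference between the groups in this sum, at 3062 and 1936 against 1101 and 463 CPM. The list held genes of both directions, with a median log2 fold change of -0.47 and 17 of 24 tested genes below 0. The integrin gene Itgam, with 3 labelled Hira KO-only regions, lay at 1.31 on the log2 scale and did not pass (edgeR adjusted p = 0.0787), and the cytokine receptor gene Csf3r, with 1, lay at 1.04 and passed (adjusted p = 0.0427). The lymphoid list summed to 2414 and 2308 CPM against 6368 and 4276 CPM, of which the antibody gene Ighm made up 429 and 410 against 3027 and 1553 CPM and Igkc 97.1 and 97.2 against 1297 and 811 CPM. Its median log2 fold change was -0.02, with 15 of 29 tested genes below 0.

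The stromal and endothelial list had 8 labelled WT-only and 2 labelled Hira KO-only regions near 29 genes, but at 3 genes only, of which Tjp1 and Col5a1 held 7. Of its 22 tested genes 7 were lower by edgeR (without labelled WT 1 or 2 none, with 11 below 0 at an unadjusted p below 0.05 in each case), and its summed level was 324 and 328 CPM in labelled WT and 235 and 238 CPM in labelled Hira KO. Tjp1 and Col5a1 made up most of that difference, and 5 genes of the list lay above 0 at an unadjusted p below 0.05. Over all tested genes edgeR called 0.48% lower, and the share of all genes at an unadjusted p below 0.05 is not given here. The list was drawn up for cells that the gate should leave out, but its genes need not be particular to those cells. None of the 29 was at 0 in all 4 libraries, and the part of such cells in the calls at Tjp1 and Col5a1 was not tested. The megakaryocyte list had 9 and 5 regions near 21 genes. Near the 17 genes of the HIRA complex and H3.3 there were 2 labelled WT-only regions, at the H3.3 gene H3f3a (122 and 129 against 100.4 and 108 CPM) and at the HIRA complex gene Cabin1, and 3 labelled Hira KO-only regions.

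**Figure D5:**
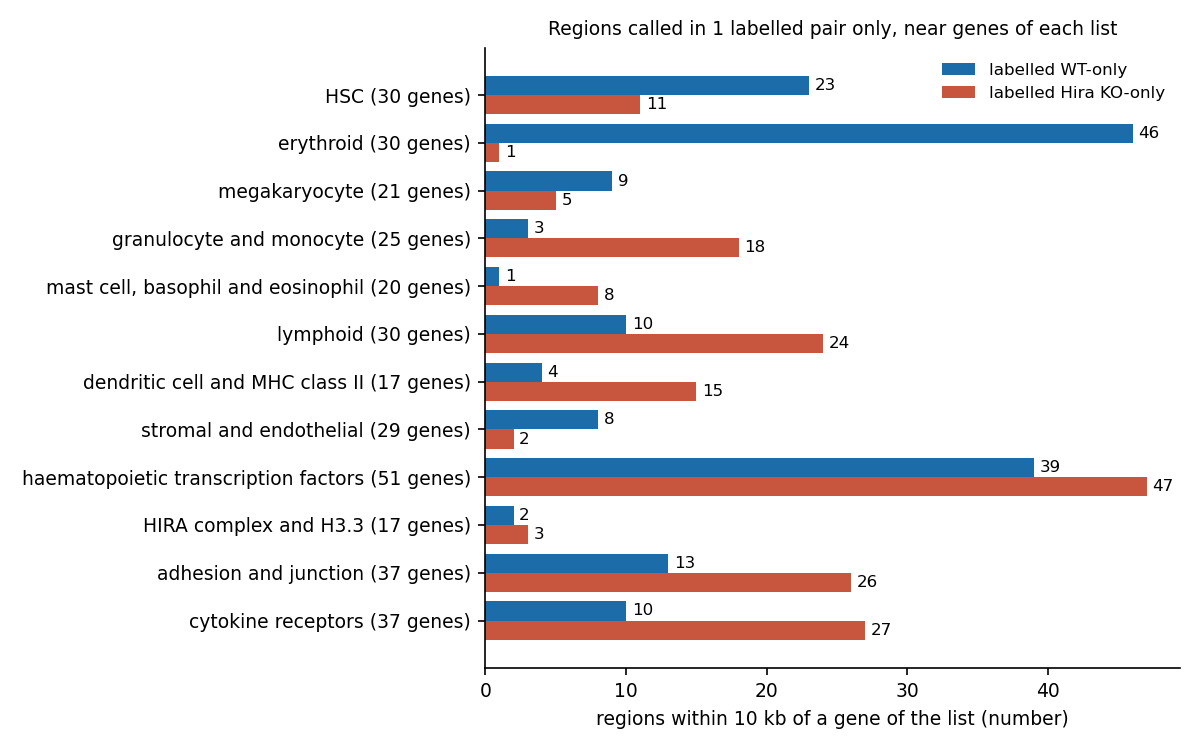
Number of labelled WT-only (blue) and labelled Hira KO-only (red) regions within 10 kb of the genes of each of 12 lists (horizontal axis), with the number of genes of a list in brackets. Erythroid genes stand out with 46 against 1, and genes in several lists count in each.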

How the data were processed

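Each assay, RNA-seq and ATAC-seq of LSK cells, had 2 libraries per genotype, grouped by sample title. The submitters' processing notes name the build GRCm38 and, with no role for any, STAR 2.5.3a, RSEM 1.3.0, HTSeq, Trim Galore 0.4.5, bedtools, MACS2 2.1.1, Bowtie2 2.2.9 and DESeq2. Each ATAC-seq peak list was deposited per library in narrowPeak layout, with a fold enrichment at each summit, which is the authors' ratio of signal to local background, and its -log10 q-value and -log10 p-value. A shift of reads for the transposase is not stated in the sources used here. The expected counts per gene were deposited by the authors as RSEM gene tables (per the file headers), with the authors' TPM beside them. Expected counts summed to 16.6, 19.8, 17.5 and 19.4 M in labelled WT 1 and 2 and labelled Hira KO 1 and 2, a depth that limits genes of low count most. The ATAC-seq files give no read totals.

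Peak intervals that repeated for several summits were taken once, the mitochondrial intervals were left out, and intervals overlapping by at least 1 bp were merged with Python 3.11.15 and pandas 2.3.3. For a region the highest fold of each list was kept. Gene positions were looked up by symbol in a GRCm38.p6 table of RefSeq: 45143 of 45706 gene IDs had a symbol, and 14048 tested genes had a position. That table has no strand, so gene starts came from the RefSeq promoter windows, which hold no chromosome 18. A region was near a gene when it lay within 10 kb of its body. No genome sequence was used here.

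After rounding the expected counts, 16258 genes that passed filterByExpr were tested with the quasi-likelihood F test of edgeR 4.0.16 (R 4.3.3, TMM factors, genotype alone in the model), with Benjamini-Hochberg adjustment and calls below 0.05. CPM are TMM-scaled. The biological coefficient of variation was 27.8%. The SE was derived from the F statistic. The merging and the edgeR step were tested on simulated data. Replicate numbers did not pair the RNA libraries (correlation of deviations 0.061). The members and gene lists were chosen with earlier results of these data known. The text names the strongest, widest and threshold regions, called genes within 10 kb of a member, the 8 protein-coding genes with the most members and at most 4 genes of each list. Further genes were picked after their values were seen: the remaining called genes, Ly6a, Kit, Tspo2, Rhag, Car2, Hba-a2, Blvrb, Klf1, Gata1, Alas2, Mpo, Itgam, Csf3r, Ighm, Igkc and those of the 3 windows in members. Some items are not reported here. Alternatives were DESeq2 1.42.0, limma 3.58.1 on log2(TPM + 1), no low-count filter, a replicate block, other peak thresholds, overlaps, list lengths and distances, autosomes alone, and each library left out in turn.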

Additional observations from a re-analysis of the deposited data

How the results depend on the processing

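With equal lists labelled Hira KO-only regions numbered 3818 against 4400 labelled WT-only ones, so the order of the classes depended on list length. Without labelled WT 2 they numbered 8123 against 13049, but labelled WT-only then needed 1 list and labelled Hira KO-only still 2. In the other settings labelled Hira KO-only regions were the more numerous. Higher calls outnumbered lower ones over all genes except without labelled Hira KO 1 (1657 against 1888) and without labelled WT 2 (1 and 1). The median near members stayed below 0 in each setting. The number of labelled WT-only regions was 2442 with peaks of -log10 q of at least 5, 3082 with an overlap of 50% of the shorter interval, 4400 with equal numbers of the strongest peaks per list, 2335 with no labelled Hira KO interval allowed within 500 bp and 3031 on autosomes, and 5139 to 13049 with 1 ATAC-seq library left out. Of the 3118 regions, 1414 (45.3%) overlapped a labelled WT-only region of the stricter threshold and 2086 (66.9%) one of the equal lists. Genes called lower near members numbered 12 with body overlap, 134 by DESeq2, 254 without the low-count filter, 52 by limma and 37 with the replicate block. With 1 RNA library left out they numbered 0 to 442, and with 1 ATAC-seq library left out 27 to 38. Genes called higher near members numbered 34 with equal lists, 43 within 50 kb, 11 with body overlap, 107 by DESeq2, 154 without the filter, 28 by limma, 42 with the replicate block, 0 to 251 without 1 RNA library and 28 to 74 without 1 ATAC-seq library. Over all genes the higher and lower calls were 776 and 505 by DESeq2, 1206 and 1017 without the filter, 392 and 262 by limma and 368 and 169 with the replicate block, and 1 to 1657 and 1 to 1888 without 1 library. The share of calls that were higher was 73.3% with edgeR, 60.6% by DESeq2, 54.3% without the filter, 59.9% by limma and 46.7% without labelled Hira KO 1. The median near members was -0.13 by limma, -0.10 with the replicate block and -0.14 to -0.0639 without 1 library, while DESeq2 and the unfiltered fit moved the median of all genes to 0.13. Lower calls were more frequent near members than over all genes in each fit that called any gene lower there. By DESeq2 they were 4.62% against 1.70%. Higher calls were also more frequent near members by DESeq2 (3.69% against 2.61%) and without the filter (5.31% against 4.06%). Each of these fits took 29706 genes, low-count genes among them, against 16258 in the filtered fit. Near members the numbers were 2898 against 2392, so shares of the wider set do not compare directly with the filtered ones. With all 4 libraries, higher calls were less frequent near members by edgeR with the filter (0.753% against 1.32%), by limma (1.17% against 2.41%) and with the replicate block (1.76% against 2.26%). Without labelled Hira KO 1 or 2 they were more frequent near members by edgeR with the filter. Erythroid genes had 36 labelled WT-only and 2 labelled Hira KO-only regions at the stricter threshold, 45 and 1 with the 50% overlap, and 49 and 2 with equal lists. The erythroid counts, those of granulocyte and monocyte genes and the shares by TPM bin were examined under alternatives chosen after seeing the data. The depth behind the peaks is unknown and most members are weak peaks, so absence from a list does not show closed chromatin.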
